A study of Mus musculus with 15 samples.

Results

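Th17 cultures activated by plate-bound antibody were compared with Th17 cultures activated by presented antigen, over all genes measured. The members are 4 of the 15 arrays of the series, chosen by their titles: 2 of Th17 PBAB cultures and 2 of Th17 HA cultures. The array of the Th17 APC alone sample was used only to mark genes that may come from splenocytes. Its labels also give CD4+ T cells as the source, and it was read as splenocytes without T cells from its name, on which the mark depends. The starting cells were naive CD4+ T cells from 3A9 mice, whose transgenic T cell receptor recognises hen egg lysozyme (HEL). They were sorted with an antibody to that receptor and cultured for 4 days. In PBAB cultures, plate-bound anti-CD3 at 1 μg/ml and anti-CD28 at 10 μg/ml engaged the receptor and its costimulator directly. In HA cultures, HEL at 2 μg/ml was presented by splenocytes of wild-type mice irradiated with 30 Gy, at 5 splenocytes per T cell, so these samples also hold what remained of the splenocytes. Both kinds of culture received the cytokines IL-6 (10 ng/ml), IL-1α (5 ng/ml) and TGF-β (3 ng/ml), with blocking antibodies to IFN-γ (20 μg/ml), IL-4 (10 μg/ml) and IL-12 (10 μg/ml). The medium and additions of the APC alone sample are not given in the labels. The remaining arrays are of Th1 and Th9 cultures, with the same kinds of activation and their own cytokine mixtures. The labels call the PBAB and HA arrays biological replicates without saying that they came from separate mice, so the p-values cover only the variation among these cultures, which may be technical.

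Th17 cells are CD4+ T helper cells that make IL-17 and recruit neutrophils to infected mucosa, and they take part in autoimmune inflammation. TGF-β and IL-6 start the programme, with IL-6 acting through STAT3, and IL-1 and IL-23 act through receptors on the committed cell. Antibody to CD3 bypasses peptide and MHC and gives a strong, sustained receptor signal, whereas presented antigen also brings the adhesion and costimulatory ligands and cytokines of the presenting cell.

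The labels were checked against marker genes before the comparison. Il17a, the defining cytokine, measured 11.82 to 11.85 on the log2 scale in the PBAB arrays and 9.67 to 10.72 in the HA arrays, against 5.41 to 6.04 in the 8 activated Th1 and Th9 arrays. Ccr6, a Th17 chemokine receptor, was at 7.29 to 8.22 in the PBAB and 9.63 to 9.69 in the HA arrays, against 5.45 to 7.10 in those 8 arrays. The IL-1 receptor gene Il1r1 was at 6.79 to 7.19 in the PBAB and 8.71 to 8.91 in the HA arrays, against 5.71 to 8.09, so it did not mark the PBAB arrays. The 6 measured CD4 T cell markers averaged 11.27 and 11.09 in the PBAB arrays, 11.32 and 10.91 in the HA arrays, and 8.34 in the APC alone array. Il9, the cytokine that names the Th9 lineage, was at 10.52 and 9.38 in Th17 PBAB and 9.01 and 10.41 in Th17 HA arrays, and at 5.33 to 8.31 in Th9 PBAB and 5.39 to 6.29 in Th9 HA arrays, so the Th9 arrays used for comparison below were not marked by it. Il17f, Il22 and Il23r are not analysed here. The APC alone array stood apart from the 4 Th17 arrays. It correlated with them at 0.690 to 0.705, whereas PBAB and HA arrays correlated with each other at 0.962 to 0.976, the PBAB replicates at 0.989 and the HA replicates at 0.987. Its bioB hybridisation control read 14.01, against at most 10.86 in the 4 arrays, and its actin signal was higher by 0.92 at the 3′ end than at the 5′ end. This 3′ excess was 0.22 and 0.12 in the Th17 PBAB arrays, against 0.05 and 0.10 in the HA arrays. The PBAB arrays lay above the HA arrays in Th1 (0.25 and 0.28, against 0.05 and 0.09) and Th9 cultures (0.20 and 0.16, against 0.11 and 0.05) too, and its part in the results was not tested. Its values also spanned a narrower range, with an interquartile range of 2.09 against 3.25 to 3.47.

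Of 15498 genes tested, 2648 (17.1%) differed between PBAB and HA cultures at an adjusted p under 0.05 (limma, Benjamini-Hochberg over all genes). Lower genes outnumbered higher ones: 1616 (10.4%) were lower and 1032 (6.66%) higher in PBAB cultures, while the median difference over all genes was -0.00. Every difference below is PBAB minus HA on the log2 scale, with its standard error from the fit. With the replicate number as a block, 4709 of the 15498 genes were called, 1938 higher and 2771 lower. The list counts below are to be read against the shares over all genes. List counts with the block are to be read against these block counts. The count depended on single arrays: leaving out the second HA array left 1214 calls, the first PBAB array 1557, the second PBAB array 1392 and the first HA array 2032. The PBAB and HA values did not overlap in 8488 genes (54.8%), which included all 2648 called genes. More than 4-fold differences were seen in 244 called genes, 95 higher and 149 lower. In 217 called genes 1 group's mean lay under the low-value threshold of 5.07, and in 31 both did, so the size of those differences is uncertain.

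**Figure D1:**
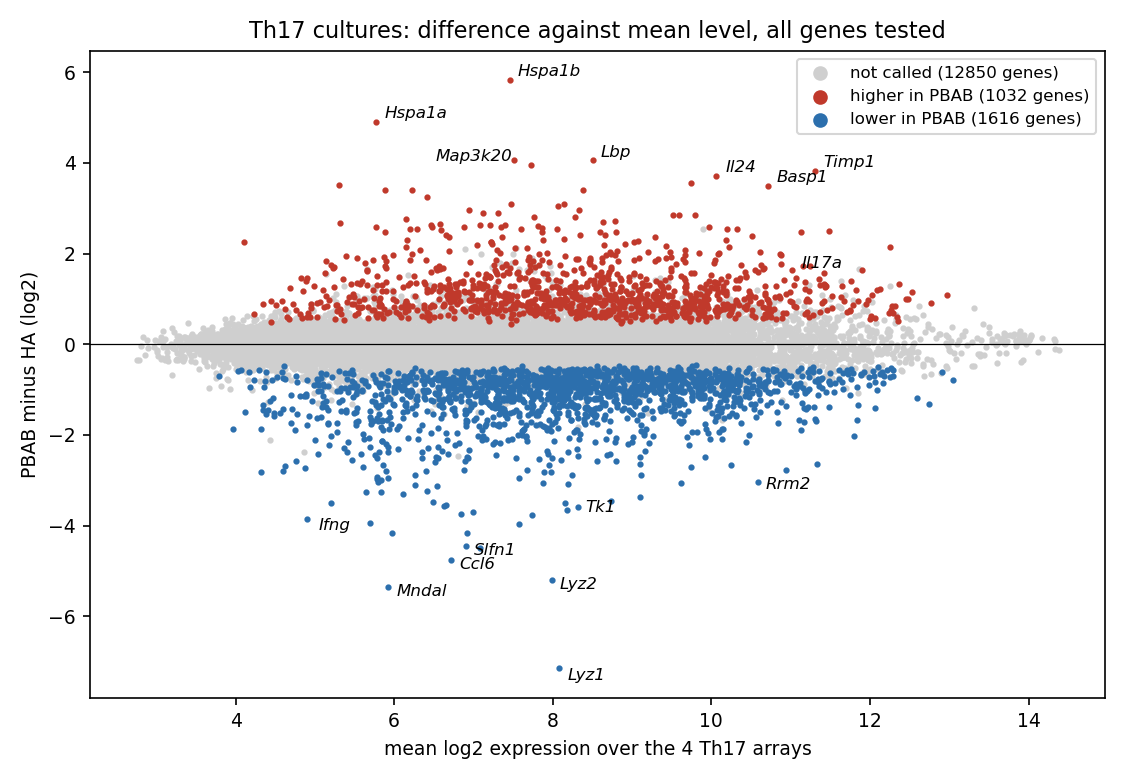
Difference PBAB minus HA (log2, vertical axis) against the mean log2 level over the 4 Th17 arrays (horizontal axis) for the 15498 genes tested. Red points are the 1032 genes higher in PBAB cultures and blue points the 1616 lower; Hspa1b lies highest at 5.82 and Lyz1 lowest at -7.15.

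The 10 genes with the largest called difference in each direction were described first. The higher ones began with the inducible heat shock proteins Hspa1b (5.82 ± 0.27, adjusted p = 9.03e-06) and Hspa1a (4.90 ± 0.35, adjusted p = 4.97e-05). Lbp, known as the acute phase protein that binds bacterial lipopolysaccharide, measured 11.18 and 9.90 in PBAB cultures, against 6.58 and 6.35 in HA cultures. Its difference was 4.07 ± 0.37 (adjusted p = 0.000154); its second probe set gave 0.62. S1pr3, a sphingosine-1-phosphate receptor, was higher by 4.07, the stress kinase Map3k20 by 3.95, the metalloproteinase inhibitor Timp1 by 3.82, the lysosomal galactosidase Gla by 3.56, 2610528A11Rik by 3.50 and the membrane protein Basp1 by 3.49; Il24 is given with the cytokines. Among the lower genes, the lysozymes Lyz1 (-7.15 ± 0.50, adjusted p = 4.8e-05) and Lyz2 (-5.21 ± 0.40, adjusted p = 6.9e-05), the chemokine Ccl6 (-4.77) and Wfdc17 (-3.97) were higher still in the APC alone array than in the HA mean, by 1 or more. The other 6 were below the HA mean in that array: the p200 family genes Mndal (-5.35) and Ifi209 (-4.16), Slfn1 of the Schlafen family (-4.46), the lymphocyte membrane gene Ms4a4b (-4.50), the T cell receptor gamma segment Trgv4 (-4.16) and Ifng (-3.94).

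Among the cytokines of the lineage, Il17a and Il24 were higher in PBAB cultures and the others did not pass the test. Il17a measured 11.85 and 11.82 in PBAB cultures, against 10.72 and 9.67 in HA cultures and 6.98 in the APC alone array. The groups did not overlap, and the difference was 1.64 ± 0.30 (3.11-fold, adjusted p = 0.00469). Il24, an IL-10 family cytokine, measured 11.64 and 12.18 in PBAB cultures, against 8.88 and 7.54 in HA cultures. Its difference of 3.70 ± 1.03 (adjusted p = 0.0319) lost the call without any 1 array, with adjusted p of 0.0509 without the first and 0.202 without the second HA array, and 0.0982 without the first and 0.161 without the second PBAB array. Il21, which sustains the lineage through STAT3, was at 9.96 and 9.79 in PBAB and 9.66 and 8.85 in HA cultures (0.62 ± 0.39, adjusted p = 0.361, 0.0291 with the replicate block). Csf2, the gene of GM-CSF, differed by 0.82 ± 0.40 (adjusted p = 0.212), and by 1.43 without the first PBAB array (adjusted p = 0.0467). Lif (0.23), the chemokine gene Ccl20 (-0.28) and Tnf (-0.31) did not pass; without the first HA array Ccl20 did, at -0.77 (adjusted p = 0.0358). The median over the 7 cytokines was 0.62, or 0.22 without the second HA array.

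Receptors of the lineage showed the opposite direction where they passed: 3 of 9 were lower in PBAB cultures. Ccr6, the CCL20 receptor that guides Th17 cells to mucosa, measured 8.22 and 7.29 in PBAB cultures, against 9.69 and 9.63 in HA cultures and 8.52 in the APC alone array. The groups did not overlap, and the difference was -1.90 ± 0.30 (adjusted p = 0.00227). Il1r1, the IL-1 receptor, measured 7.19 and 6.79 against 8.91 and 8.71 (-1.82 ± 0.23, adjusted p = 0.00081), although its second probe set gave 0.08. Il18r1, the IL-18 receptor chain, measured 6.54 and 6.76 in PBAB cultures, against 9.73 and 9.75 in HA cultures (-3.09 ± 0.20, adjusted p = 3.98e-05). The IL-6 receptor chains Il6ra (-0.09 ± 0.26) and Il6st (-0.50 ± 0.38), Il21r (-0.05 ± 0.18) and Il17ra (0.16 ± 0.19) did not pass. Il12rb1, the chain shared by the IL-12 and IL-23 receptors, differed by 0.95 ± 0.36 (adjusted p = 0.103, 0.0042 with the replicate block). For Il17re the probe set used gave 0.03 ± 0.20, but the mean over its probe sets gave -1.0 (adjusted p = 0.00749).

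Of 19 transcription factors of the programme, 2 were higher, 3 lower and 14 did not pass, against 6.66% higher and 10.4% lower over all genes. The median was 0.56, but 1.12 without the first HA array, 0.12 without the second and 0.29 without the first PBAB array. With the replicate block 6 were higher and 4 lower. Without the first HA array 5 were higher and 1 lower, without the second PBAB array 1 and 1, and without the second HA or the first PBAB array the 5 named calls were lost. Maf, which drives Il10 and Il21, measured 12.04 and 11.53 in PBAB cultures, against 10.89 and 10.26 in HA cultures (1.21 ± 0.27, adjusted p = 0.0107). Without the second HA array its adjusted p was 0.101, without the first PBAB array 0.0904, and with the mean of its probe sets 0.206. Stat3, the transducer of IL-6 signals, differed by 0.96 ± 0.29 (adjusted p = 0.0452), with adjusted p between 0.0518 and 0.272 when any 1 array was left out, 0.058 after centring each array and 0.129 with the probe set chosen on the activated arrays. Rora, a nuclear receptor of the Th17 programme, measured 11.71 and 11.58 in PBAB cultures, against 11.52 and 10.53 in HA cultures (0.62 ± 0.29, adjusted p = 0.185), and passed without the first HA array (1.12, adjusted p = 0.015). Irf4, a factor induced by receptor signals, differed by 0.98 ± 0.36 (adjusted p = 0.099, 0.0102 with the replicate block and 0.0295 in the 4 Th17 arrays alone); its second probe set gave 3.37, and the mean of both 2.17 (adjusted p = 0.00193). The other positive differences that did not pass were Etv5 (1.55), Fosl2 (1.37), Nfkbiz (0.75), Bhlhe40 (0.72), Satb1 (0.64), Hif1a (0.56), Ahr (0.51), Junb (0.45) and Cebpb (0.33). With the replicate block Etv5 (adjusted p = 0.000434), Fosl2 (0.0213) and Bhlhe40 (0.0285) passed, as did Etv5 in the 4 Th17 arrays alone (0.0148) and Fosl2 with the mean of its probe sets (2.34, adjusted p = 0.00792). Without the first HA array Fosl2 (adjusted p = 0.00491), Bhlhe40 (adjusted p = 0.0101) and Hif1a (adjusted p = 0.0208) passed.

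The 3 lower factors were modest or dim. Runx1, a Runt family factor, differed by -0.85 ± 0.18 (adjusted p = 0.00889), and Nfatc2, a calcium-dependent factor, by -0.70 ± 0.19 (adjusted p = 0.0284). With the mean of all probe sets both shrank to -0.18 (adjusted p of 0.471 for Runx1 and 0.496 for Nfatc2). Runx1 also lost the call without the second HA array (adjusted p = 0.0755) and without the first PBAB array (adjusted p = 0.0517), and Nfatc2 in the 4 Th17 arrays alone (0.0503) and without any 1 array (adjusted p from 0.0779 to 0.156). Prdm1 (-1.34, adjusted p = 0.0208) lay near or under the low-value threshold in both groups and lost the call without any 1 array (adjusted p from 0.0559 to 0.132). Batf (-0.36), Ikzf3 (-0.49) and Etv6 (-0.50) did not pass; Etv6 did with the replicate block (adjusted p = 0.0256).

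**Figure D2:**
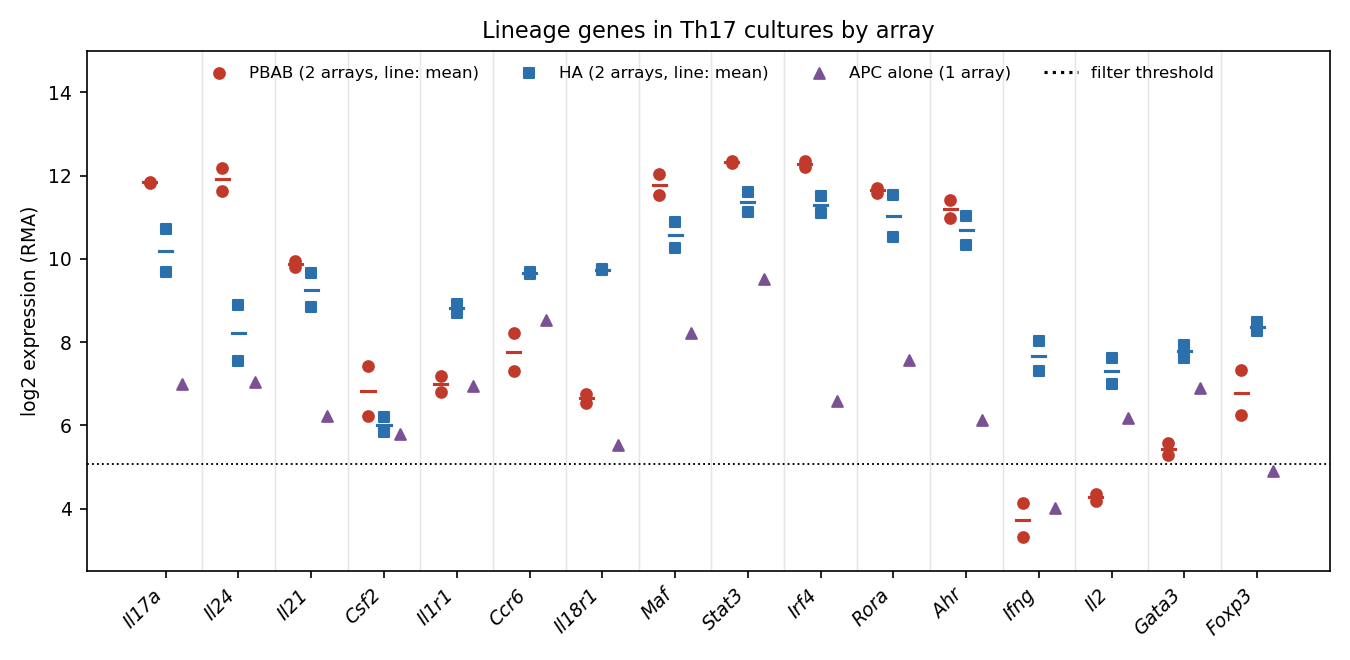
Log2 expression of 16 lineage genes in the Th17 PBAB arrays (circles), HA arrays (squares) and APC alone array (triangle), with a line at the mean of each pair and a dotted line at the low-value threshold of 5.07. Il17a and Il24 lie higher in PBAB cultures, and Il1r1, Ccr6, Il18r1, Ifng, Il2, Gata3 and Foxp3 lie lower.

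Defining genes of the Th1 and Th2 lineages, Ifng and Gata3, were lower in PBAB cultures. Ifng, the Th1 cytokine, measured 3.32 and 4.13 in PBAB cultures, against 7.30 and 8.02 in HA cultures and 4.01 in the APC alone array. The groups were far apart, with a difference of -3.94 ± 0.48 (adjusted p = 0.000641), and the PBAB mean lay under the low-value threshold. Tbx21, the Th1 master factor, was near the threshold in both groups (-0.45 ± 0.43, adjusted p = 0.581). Of 13 Th1 genes, 3 were lower (Ifng, Il18r1 and Il18rap) and 1 was higher (Ifngr2, 0.91 ± 0.23, adjusted p = 0.0206), against 10.4% lower and 6.66% higher over all genes. Ifngr2 lost the call with the mean of its probe sets (0.53, adjusted p = 0.111), in the 4 Th17 arrays alone (0.0568), without the first (adjusted p = 0.0677) or second (0.109) HA array and without the second PBAB array (0.168). Il18rap, the second IL-18 receptor chain, lost it without the first HA array (adjusted p = 0.0546) or the first PBAB array (0.0799). Gata3, the Th2 master factor, measured 5.29 and 5.58 in PBAB cultures, against 7.94 and 7.63 in HA cultures (-2.35 ± 0.40, adjusted p = 0.00317). Among the 12 Th2 and Th9 genes, the receptors Ccr8 (1.70 ± 0.26, adjusted p = 0.00193) and Il4ra (1.25 ± 0.26, adjusted p = 0.00924) were higher. Il4ra lost the call without the second HA array (0.0765) or the first PBAB array (0.0669), so that 1 of the 12 was then called higher. Il9 differed by 0.25 ± 0.80 (adjusted p = 0.893).

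Regulatory T cell genes split. Foxp3, the factor that defines the regulatory lineage, measured 7.33 and 6.24 in PBAB cultures, against 8.26 and 8.48 in HA cultures (-1.59 ± 0.43, adjusted p = 0.0277). That call was lost without the first HA array (adjusted p = 0.075), the second HA array (0.146) or the second PBAB array (0.219). Itgae, the αE integrin chain, measured 6.10 and 6.61 in PBAB cultures, against 9.78 and 10.23 in HA cultures (-3.65 ± 0.32, adjusted p = 0.000138). Of the 16 genes on the list 8 were higher and 3 lower (1 lower without the second HA array), and the higher ones include receptors that conventional T cells also induce on activation. Ctla4, an inhibitory receptor, was higher by 1.34 ± 0.18 (adjusted p = 0.000914), Tnfrsf18 (GITR) by 1.64 ± 0.21 (adjusted p = 0.000787), Izumo1r by 1.82 ± 0.23 (adjusted p = 0.000725) and the Helios gene Ikzf2 by 2.20 ± 0.35 (adjusted p = 0.0022), which was at 9.54 in the APC alone array. Il10, an anti-inflammatory cytokine, measured 8.68 and 8.85 against 8.64 and 7.37 and did not pass (0.76 ± 0.61, adjusted p = 0.497).

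The set of genes often used to mark pathogenic Th17 cells was lower where it passed. Of 15 tested, 6 were lower, against 10.4% of all genes, and the rest did not pass, with a median of -0.63. With the replicate block 10 were lower, against 2771 of all 15498 genes. Ccl3, a chemokine, measured 4.31 and 4.28 in PBAB cultures, against 6.65 and 7.87 in HA cultures (-2.97 ± 0.40, adjusted p = 0.00101). Il7r, the IL-7 receptor chain, measured 9.13 and 9.82 in PBAB cultures, against 11.78 and 11.16 in HA cultures (-2.0 ± 0.29, adjusted p = 0.00146). Casp1 (-2.52 ± 0.38, adjusted p = 0.00181), the inflammasome protease, and Cxcl3 (-2.81 ± 0.28, adjusted p = 0.000289) had PBAB means under the low-value threshold. Among 5 targets of the aryl hydrocarbon receptor, Cyp1b1 (-2.51 ± 0.38, adjusted p = 0.00179), Ahrr (-1.75 ± 0.22, adjusted p = 0.000732) and Nqo1 (-1.04 ± 0.20, adjusted p = 0.00558) were lower and Tiparp higher (1.77 ± 0.32, adjusted p = 0.00429). Nqo1 lost the call without the second PBAB array (adjusted p = 0.0526).

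Genes induced early by the T cell receptor were higher where they passed: 5 of 24, against 6.66% of all genes, and 9 with the replicate block. Their median was 0.41, or 0.19 without the second HA and 0.26 without the first PBAB array. In Th1 cultures 7 and in Th9 cultures 11 of the 24 were higher, against 5.22% and 7.39% of all genes. The medians there were 0.60 and 1.13. Of the 24, 2 had a more negative difference in Th17 than in the other lineages, against 1.97% of all genes. The nuclear receptor gene Nr4a2 measured 9.23 and 8.80 in PBAB cultures, against 6.10 and 5.74 in HA cultures (3.09 ± 0.36, adjusted p = 0.000526). Nr4a3 measured 9.22 and 9.47 against 7.78 and 7.96 (1.47 ± 0.19, adjusted p = 0.000811), and the activation marker Cd83 9.05 and 9.18 against 7.0 and 6.03 (2.60 ± 0.48, adjusted p = 0.00474). In the APC alone array Nr4a2 was at 7.46. Nr4a1 (1.86 ± 0.52, adjusted p = 0.0321) lost the call without any 1 array (adjusted p from 0.053 to 0.2). Ier3 (1.91 ± 0.58, adjusted p = 0.0466) lost it without the second HA (0.32), the first PBAB (0.14) or the second PBAB array (0.189), and with centring, no filter, the trended fit or the mean of probe sets (0.0508 to 0.0562). Without the second HA array or either PBAB array 3 of the 24 were called. Cd5, a surface protein whose level follows receptor signal strength, measured 11.92 and 11.48 in PBAB cultures, against 9.53 and 9.12 in HA cultures (2.38 ± 0.34, adjusted p = 0.00136), and Cd6 differed by 1.53 ± 0.22 (adjusted p = 0.00136). The receptor subunit Cd3g was lower by -0.78 ± 0.17 (adjusted p = 0.00997), a call lost without the first HA array (0.0679) or the first PBAB array (0.0792), while Cd3d (-0.18 ± 0.16) and Cd4 (0.37 ± 0.30) did not pass.

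The IL-2 gene and its receptor ran opposite ways. Il2 measured 4.19 and 4.36 in PBAB cultures, against 7.0 and 7.61 in HA cultures and 6.17 in the APC alone array (-3.03 ± 0.27, adjusted p = 0.000154), with the PBAB mean under the low-value threshold. Il2ra, the high-affinity receptor chain, measured 11.87 and 12.55 in PBAB cultures, against 10.48 and 10.77 in HA cultures (1.58 ± 0.25, adjusted p = 0.00234). A dimmer probe set of Il2ra gave -0.65, and the mean of both 0.46 (adjusted p = 0.309). Stat5b, which carries the IL-2 signal, was higher by 0.93 ± 0.21 (adjusted p = 0.012), a call lost without the second HA array (0.112) or the first PBAB array (0.0823). Slamf6, a homotypic adhesion receptor, was lower by -3.55 ± 0.30 (adjusted p = 0.000103). Of genes that mark quiescent and recirculating T cells, Klf2 (-2.41 ± 0.29, adjusted p = 0.000597), a factor that holds cells in the resting state, and Slfn2 (-3.07 ± 0.24, adjusted p = 8.41e-05) were lower, and Tsc22d3 was higher (1.86 ± 0.24, adjusted p = 0.00085).

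Most proliferation genes were lower in PBAB cultures. Of 25 mitosis genes 22 were lower, with a median of -1.65, and of 25 DNA replication genes 22 were lower, with a median of -1.90, against 10.4% of all genes lower. Birc5, a chromosomal passenger protein, measured 9.21 and 8.61 in PBAB cultures, against 11.22 and 11.94 in HA cultures (-2.67 ± 0.31, adjusted p = 0.00056). Rrm2, the regulated subunit of ribonucleotide reductase, measured 9.49 and 8.65 against 11.81 and 12.41 (-3.04 ± 0.29, adjusted p = 0.000212), and 7.67 in the APC alone array. In the mean level of both lists each PBAB array was below each HA array, and the APC alone array was lowest. The polymerase subunit Pola1 was lower by -2.53 ± 0.22 (adjusted p = 0.000116), the large reductase subunit Rrm1 by -2.10 ± 0.19 (adjusted p = 0.000154), cyclin A2 (Ccna2) by -2.09 ± 0.25 (adjusted p = 0.000607) and Cdk1 by -1.87 ± 0.25 (adjusted p = 0.000919). The mean over the mitosis genes was 8.86 and 8.02 in PBAB cultures and 9.91 and 10.25 in HA cultures, so the PBAB replicates also differed from each other. In Th1 cultures 8 and in Th9 cultures 9 of the mitosis genes were lower, and 16 of the replication genes in each, against 9.4% of all genes in Th1 and 6.32% in Th9. The difference between these counts was not tested. Gene by gene, the Th17 difference was called more negative than the mean of the Th1 and Th9 differences in 2 of the 25 mitosis genes. The same held for 1 of the 25 replication genes, against 1.97% of all genes. The median of this contrast was -0.98 for the mitosis and -0.57 for the replication genes.

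Stress genes of the ATF4 pathway, which respond to amino acid shortage and endoplasmic reticulum stress, were higher. Of 21 tested, 13 were higher and the rest did not pass, with a median of 1.06. Atf4 itself measured 12.20 and 12.73 in PBAB cultures, against 10.87 and 11.25 in HA cultures (1.40 ± 0.22, adjusted p = 0.00219). Nupr1, a small nuclear stress protein, measured 9.93 and 10.24 in PBAB cultures, against 6.06 and 7.32 in HA cultures (3.40 ± 0.38, adjusted p = 0.000444). Ddit3, the CHOP gene, was higher by 2.36 ± 0.30 (adjusted p = 0.000732), Atf5 by 1.60 ± 0.22 (adjusted p = 0.00118) and the arginine transporter Slc7a3 by 2.55 ± 0.27 (adjusted p = 0.000356). The same list had 14 higher members in Th1 and 14 in Th9 cultures, against 5.22% and 7.39% of all genes higher. The promoter of Nupr1 is shown because it holds an ATF4 composite element, TGATGNAA, searched on both strands. RefSeq places the 300 bases, 250 before and 50 after the start, on the minus strand of GRCm38.p6 at chr7:126625421-126625720, and the capitals mark the match.
Nupr1: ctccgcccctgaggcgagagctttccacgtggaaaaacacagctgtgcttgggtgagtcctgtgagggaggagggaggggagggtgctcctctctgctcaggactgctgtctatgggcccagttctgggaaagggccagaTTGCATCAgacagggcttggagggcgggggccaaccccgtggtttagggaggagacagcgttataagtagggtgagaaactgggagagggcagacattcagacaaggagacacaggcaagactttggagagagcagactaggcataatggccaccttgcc

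This element was found in 6 of the 17 list genes with a promoter window, 3 of the 10 called ones among them. It was found in 4.51% of all 27025 genes with a window and in 3.97% of all 32851 windows, some genes having several. Of 17 unfolded protein response genes of the endoplasmic reticulum, 3 were lower and 1 was higher, against 10.4% and 6.66% of all genes. With the replicate block 5 were lower, against 2771 of all 15498 genes. The chaperone cofactors Sdf2l1 (-1.23 ± 0.20, adjusted p = 0.00249) and Dnajb11 (-1.06 ± 0.15, adjusted p = 0.00107) were lower, and Herpud1 was higher (0.87 ± 0.18, adjusted p = 0.00817). Among 16 p53 targets 4 were higher, led by the cell cycle inhibitor Cdkn1a (1.77 ± 0.30, adjusted p = 0.00284) and the death gene Bbc3 (1.28 ± 0.23, adjusted p = 0.00419); without the second HA or second PBAB array 2 were called.

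Hypoxia genes, targets of HIF factors that adapt cells to low oxygen, were higher in 10 of 20, with a median of 1.11, or 0.72 without the second HA array. The median in the other lineages was -0.32 in Th1 and 0.36 in Th9 cultures. Ero1a, an oxidase for protein folding, measured 12.68 and 12.79 in PBAB cultures, against 10.54 and 9.94 in HA cultures (2.5 ± 0.28, adjusted p = 0.000446). Ddit4, an inhibitor of mTORC1, measured 11.96 and 11.77 against 10.28 and 9.48 (1.99 ± 0.35, adjusted p = 0.00346), and the growth factor Vegfa 8.66 and 8.58 against 7.19 and 6.33 (1.86 ± 0.32, adjusted p = 0.00306). Pfkfb4 was higher by 1.23 ± 0.18 (adjusted p = 0.00128). The list's mean level was 10.05 and 10.28 in the PBAB arrays and 9.31 and 8.30 in the HA arrays, so the HA replicates differed from each other more than the PBAB replicates did. Without the second HA array 4 members were called, and without the second PBAB array 4. Of 18 glycolysis genes 5 were higher, and 8 with the replicate block. The 5 calls were lost without the second HA array (adjusted p from 0.0871 to 0.302) and without the second PBAB array (0.0802 to 0.26), and 1 was left without the first PBAB array. The glucose transporter Slc2a1 measured 11.43 and 12.22 in PBAB cultures, against 10.82 and 10.47 in HA cultures (1.18 ± 0.33, adjusted p = 0.035); its adjusted p was 0.0651 without the first HA array, 0.201 without the second and 0.26 without the second PBAB array. Eno2, a neuronal-type enolase, measured 9.82 and 10.13 in PBAB cultures, against 8.32 and 6.25 in HA cultures (2.69 ± 0.60, adjusted p = 0.0121). It lost the call without the second HA (0.0871), the first PBAB (0.0514) or the second PBAB array (0.0802). The Ero1a promoter is shown for its hypoxia response core, ACGTG, searched on both strands, so that the palindrome CACGTG counts on each. It lies on the minus strand of GRCm38.p6 at chr14:45318523-45318822 (RefSeq), with the match in capitals.
Ero1a: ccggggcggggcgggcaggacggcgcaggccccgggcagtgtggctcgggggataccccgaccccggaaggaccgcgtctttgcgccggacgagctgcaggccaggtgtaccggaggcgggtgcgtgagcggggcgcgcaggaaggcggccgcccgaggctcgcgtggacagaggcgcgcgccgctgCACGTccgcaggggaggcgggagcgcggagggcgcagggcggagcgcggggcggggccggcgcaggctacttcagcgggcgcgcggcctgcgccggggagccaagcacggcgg

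The core was present in 14 of the 18 list genes with a promoter window, 7 of the 10 called ones among them. It was present in 21.8% of all genes with a window and in 19.6% of all windows.

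The heat shock list had 5 of 16 members higher and 2 lower, against 6.66% and 10.4% of all genes. Its median was 0.14, but -0.02 without the first and 0.30 without the second HA array. Without the first HA array 3 were higher and 1 lower, and without any other 1 array the 2 lower calls were lost; with the replicate block 4 were lower. Hspa1b measured 10.68 and 10.06 in PBAB cultures, against 4.48 and 4.60 in HA cultures and 5.05 in the APC alone array. Hspa1a measured 8.63 and 7.83 in PBAB cultures, against 3.17 and 3.47 in HA cultures and 3.43 in the APC alone array. Both HA means lay under the low-value threshold, so the genes were dim or not detected there. Hspa4l was higher by 2.01 ± 0.22 (adjusted p = 0.000438) and Hspb1, the small heat shock protein, by 1.58 ± 0.33 (adjusted p = 0.00885). Hspb1 was at 8.64 in the APC alone array, and its call was lost without the first HA array (0.0573). Hsp90aa1 was lower by -0.57 ± 0.14 (adjusted p = 0.0205), which became -0.18 with the mean of its probe sets (adjusted p = 0.399) and lost the call in the 4 Th17 arrays alone (0.0753) and without any 1 array (0.079 to 0.0967). Hspa1b and Hspa1a are neighbouring, near-identical genes, so their probe sets may read the same transcripts and are not independent. Their transcripts and probe sequences were not compared. Their promoters are shown because the pair is near-identical there too, differing at 4 of 300 bases (98.7% identical), which are in capitals. They lie on the minus strand of GRCm38.p6 at chr17:34959189-34959488 for Hspa1b and chr17:34972107-34972406 for Hspa1a (RefSeq).
Hspa1b: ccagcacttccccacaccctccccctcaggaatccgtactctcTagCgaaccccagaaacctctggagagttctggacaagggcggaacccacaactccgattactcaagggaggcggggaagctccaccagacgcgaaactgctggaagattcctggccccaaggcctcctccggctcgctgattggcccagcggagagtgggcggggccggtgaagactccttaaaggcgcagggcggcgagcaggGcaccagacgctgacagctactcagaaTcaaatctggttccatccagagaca
Hspa1a: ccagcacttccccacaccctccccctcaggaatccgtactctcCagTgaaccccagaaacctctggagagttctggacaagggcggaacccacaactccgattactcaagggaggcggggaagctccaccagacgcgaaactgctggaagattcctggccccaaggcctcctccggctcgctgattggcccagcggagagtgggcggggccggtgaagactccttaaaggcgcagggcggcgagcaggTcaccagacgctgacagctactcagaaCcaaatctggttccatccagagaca

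A strict heat shock element, GAANNTTCNNGAA on either strand, was found in 4 of the 13 list genes with a promoter window, against 0.662% of all genes with a window and 0.603% of all windows. This strict form was not found in these 2 windows, and looser forms of it were not searched. Of the 6 called members with a window 1 held it, Hspd1, a mitochondrial chaperone named after its values were seen, which was lower by -0.60 (adjusted p = 0.0299). Cholesterol synthesis genes were higher in 4 of 16, and in 8 with the replicate block. Msmo1 was higher by 1.36 ± 0.20 (adjusted p = 0.00155) and Sc5d by 0.98 ± 0.16 (adjusted p = 0.00282); without the second PBAB array 2 were called.

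**Figure D3:**
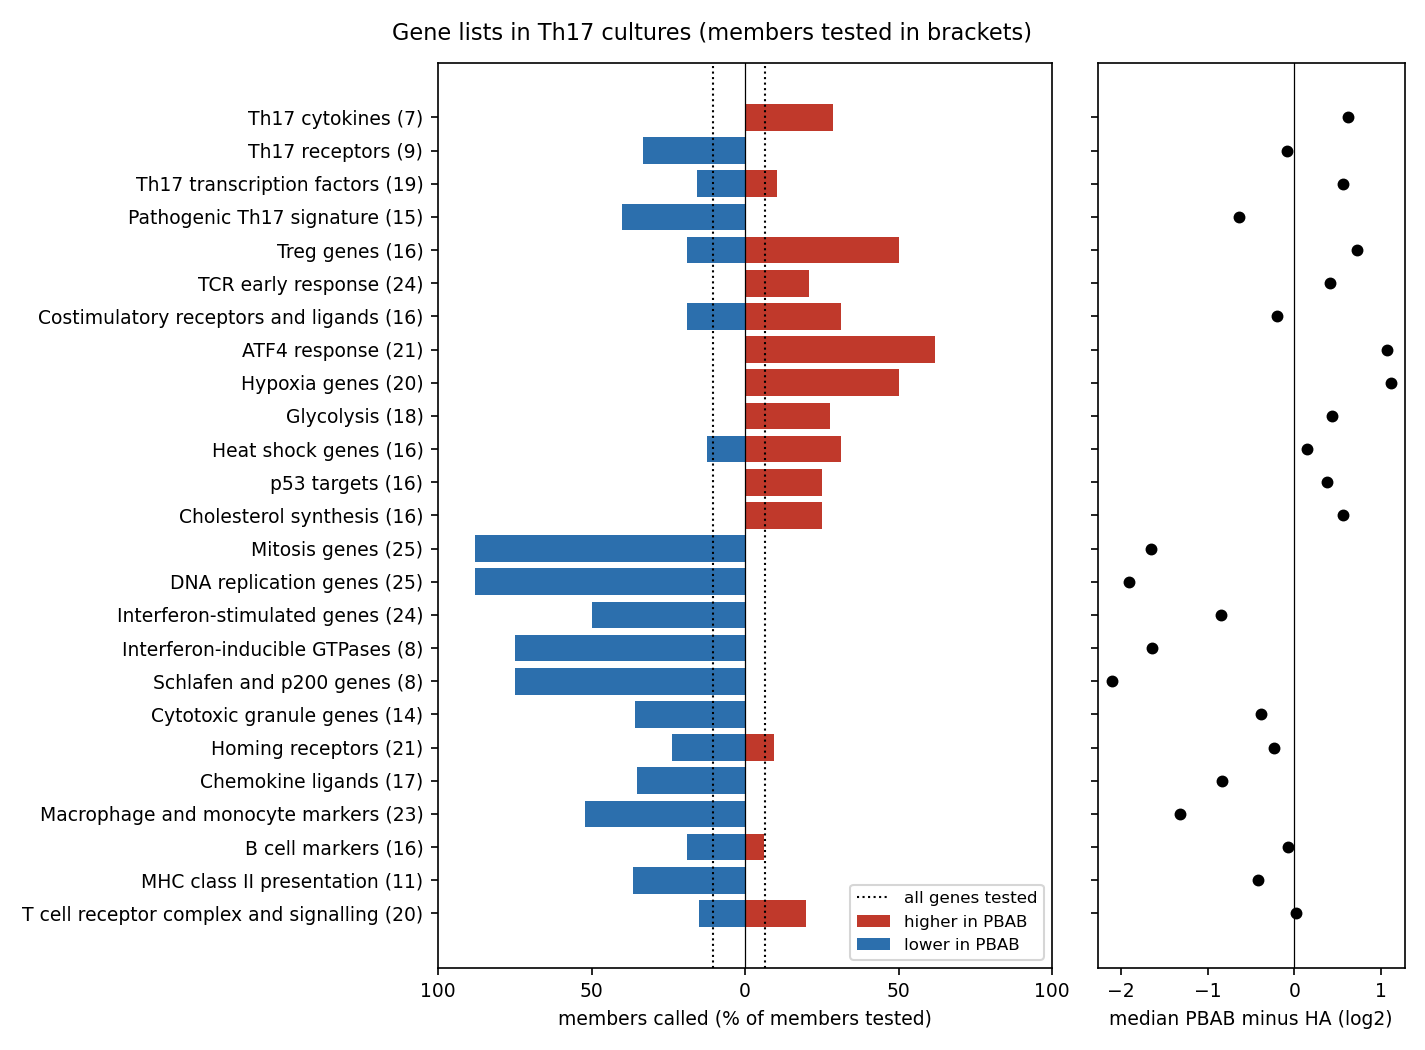
Share of each list's tested members called higher (red, to the right) or lower (blue, to the left) in PBAB cultures, in percent, with the median difference (log2) in the second panel; dotted lines mark 6.66% higher and 10.4% lower over all genes tested. ATF4 and hypoxia genes extend to the right, and mitosis, replication, interferon-inducible GTPase, Schlafen and macrophage lists to the left.

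Interferon-stimulated genes, the antiviral set switched on through STAT and IRF factors, were lower in 12 of 24, against 10.4% of all genes, with a median of -0.85. Ifit2 measured 4.78 and 4.77 in PBAB cultures, against 6.77 and 7.06 in HA cultures and 4.56 in the APC alone array (-2.14 ± 0.27, adjusted p = 0.000716). Ifi27l2a measured 8.51 and 8.0 against 10.56 and 10.01 (-2.03 ± 0.26, adjusted p = 0.000802), Trim30a 5.92 and 5.42 against 8.73 and 7.64 (-2.52 ± 0.38, adjusted p = 0.00169) and Xaf1 4.77 and 4.64 against 7.46 and 8.17 (-3.11 ± 0.45, adjusted p = 0.00133). These were at least 1 log2 unit lower in each PBAB array than in each HA array, and lower in the APC alone array than in HA cultures. The interferon-inducible GTPases were lower in 6 of 8, with a median of -1.64, including Gbp6 (-3.26 ± 0.36, adjusted p = 0.000442) and Irgm1 (-1.55 ± 0.22, adjusted p = 0.00127); without the first HA array or either PBAB array 3 were called. The Schlafen and p200 list was lower in 6 of 8, with a median of -2.10. Slfn1, a growth regulator of T cells, measured 4.61 and 4.75 in PBAB cultures, against 9.30 and 8.98 in HA cultures and 5.85 in the APC alone array (-4.46 ± 0.28, adjusted p = 3.98e-05). In Th1 and Th9 cultures 14 of the 24 interferon-stimulated genes were lower in each, against 9.4% of all genes in Th1 and 6.32% in Th9. The promoter of Ifit1 (-1.44 ± 0.23, adjusted p = 0.00243), an RNA-binding antiviral protein, is shown because it holds 2 interferon-stimulated response elements, GAAANNGAAA searched on both strands. It lies on the plus strand of GRCm38.p6 at chr19:34640639-34640938 (RefSeq); the capitals mark the elements, which read in reverse.
Ifit1: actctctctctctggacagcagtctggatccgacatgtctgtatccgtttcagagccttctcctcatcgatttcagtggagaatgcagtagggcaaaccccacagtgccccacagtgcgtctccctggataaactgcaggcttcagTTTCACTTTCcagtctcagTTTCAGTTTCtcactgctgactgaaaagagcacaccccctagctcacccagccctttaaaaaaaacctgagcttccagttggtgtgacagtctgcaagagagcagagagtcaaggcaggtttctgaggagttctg

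The element was found in 10 of the 17 list genes with a promoter window, including 5 of the 8 called ones. It was found in 3.99% of all genes with a window and in 3.44% of all windows.

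Cytotoxic granule genes were lower where they passed, in 5 of 14, against 10.4% of all genes. In Th1 cultures 8 and in Th9 cultures 2 of the 14 were lower, against 9.4% and 6.32% of all genes. The median was -0.38 in Th17, -1.74 in Th1 and -0.18 in Th9 cultures. Gzmb, granzyme B, measured 6.07 and 8.76 in PBAB cultures, against 9.62 and 11.95 in HA cultures and 10.51 in the APC alone array (-3.37 ± 0.81, adjusted p = 0.0173). The replicates of each group differed by more than 2 units, and the call was lost in the 4 Th17 arrays alone (0.0793) and without the second HA array (0.146) or the first PBAB array (0.124). Without the second HA array 2 of the 14 were called, and without the first PBAB array 1. Serpinb9, an inhibitor of granzyme B, was lower by -2.37 ± 0.23 (adjusted p = 0.000227). The adhesion and migration genes Gpr183 (-2.81 ± 0.32, adjusted p = 0.000526) and Itga4 (-2.67 ± 0.22, adjusted p = 8.85e-05) were lower, with 5 of 21 homing receptors lower and 2 higher, or 1 higher without the second HA or first PBAB array. Over all genes 10.4% were lower and 6.66% higher. Homing receptors were lower in 8 of 21 in Th1 and 7 of 21 in Th9 cultures, against 9.4% and 6.32% of all genes. In each of these lineages 1 was higher. Cd96, an inhibitory receptor, measured 6.54 and 7.07 in PBAB cultures, against 9.45 and 9.92 in HA cultures (-2.88 ± 0.38, adjusted p = 0.000884). Chemokine ligands were lower in 6 of 17, against 10.4% of all genes. With the replicate block 13 were lower, against 2771 of all 15498 genes. Ccl9 measured 5.25 and 4.71 in PBAB cultures, against 8.53 and 8.91 in HA cultures and 7.95 in the APC alone array (-3.74 ± 0.27, adjusted p = 5.45e-05).

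Markers of splenocytes moved with the comparison. Of 23 macrophage and monocyte markers 12 were lower in PBAB cultures, with a median of -1.32 (-0.86 without the second HA array), and 22 were higher in the APC alone array than in the HA mean, 19 of them by 1 or more. Their mean level was 5.24 and 5.49 in the PBAB arrays, 6.85 and 7.05 in the HA arrays, and 9.70 in the APC alone array. Lyz2, the macrophage lysozyme, measured 5.04 and 5.73 in PBAB cultures, against 10.34 and 10.84 in HA cultures and 13.79 in the APC alone array. Apoe measured 5.08 and 5.47, against 7.74 and 7.80, and 12.88 in the APC alone array (-2.5 ± 0.29, adjusted p = 0.00056). The scavenger receptor Marco measured 5.06 and 5.37, against 7.70 and 7.92, and 8.57 in the APC alone array (-2.59 ± 0.18, adjusted p = 4.8e-05). In these bulk samples fewer cells of a type and less RNA per cell cannot be told apart.

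Markers of other splenocytes were sparser. B cell markers averaged 5.22 and 5.31 in PBAB arrays, 5.48 and 5.70 in HA arrays and 6.48 in the APC alone array. Of 16, 3 were lower and 1 was higher, against 10.4% and 6.66% of all genes. Ighm was lower by -2.71 ± 0.23 (adjusted p = 0.000118), or -0.43 with the mean of its probe sets (adjusted p = 0.0825). Of 11 MHC class II presentation genes 4 were lower, or 2 without the second HA array, led by H2-Ob (-2.28 ± 0.18, adjusted p = 8.41e-05) and the protease Ctsh (-2.44 ± 0.23, adjusted p = 0.000198). H2-Ob measured 4.66 and 4.92 in PBAB cultures, against 7.02 and 7.11 in HA cultures and 4.52 in the APC alone array, so its APC alone value was below its HA values, whereas Ctsh was at 10.28 in that array. Neutrophil markers averaged 4.72 and 4.79 in PBAB, 4.84 and 5.37 in HA and 7.05 in the APC alone array. Of 9 tested, 2 were lower, against 10.4% of all genes: S100a8 (-2.22 ± 0.25, adjusted p = 0.000442) and S100a9 (-1.48 ± 0.25, adjusted p = 0.00309). The other 7 did not pass, 4 of the 9 differences were positive, and the median was -0.01. Dendritic cell markers averaged 6.60 and 6.61 in PBAB, 6.58 and 6.51 in HA and 6.56 in the APC alone array. Of 8 natural killer cell markers tested, 2 were lower, against 10.4% of all genes, and 6 did not pass. The lower ones were Klrc1 (-2.0 ± 0.55, adjusted p = 0.0297) and Gzma (-3.51 ± 0.91, adjusted p = 0.0242). Klrc1 lost the call without the first (0.112) or second (0.114) HA array and the first PBAB array (0.215), and Gzma without the second HA array (0.163) or the first PBAB array (0.17). Cd8a measured 4.64 and 6.52 in PBAB cultures, against 7.13 and 8.95 in HA cultures and 4.46 in the APC alone array (-2.46 ± 0.92, adjusted p = 0.101, 2.64e-05 with the replicate block).

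Over all genes, 151 of the 1616 lower genes (9.34%) were higher in the APC alone array than in the HA mean, 73 of them (4.52%) by 1 or more. The same held for 264 of the 1032 higher genes (25.6%) and for 6620 of the 12850 genes not called (51.5%). These shares do not compare splenocyte origin, since the HA mean enters both the mark and the call. A high HA mean makes a lower call more likely and the mark less likely. The first quartile of the APC alone array was also higher, 4.83 against 4.10 and 4.20 in the HA arrays. Of the 149 lower genes with a difference beyond 4-fold, 25 were so marked. Among the lists, the mark fell on 11 of the 12 lower macrophage markers, 3 of the 12 lower interferon-stimulated genes, 2 of the 22 lower replication genes and none of the 22 lower mitosis genes. The part of splenocyte RNA in the differences was not tested, since a level in 1 array of splenocytes alone does not give their share in the mixed culture. Counting only genes without the mark left 2233 called genes, 1465 of them lower.

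**Figure D4:**
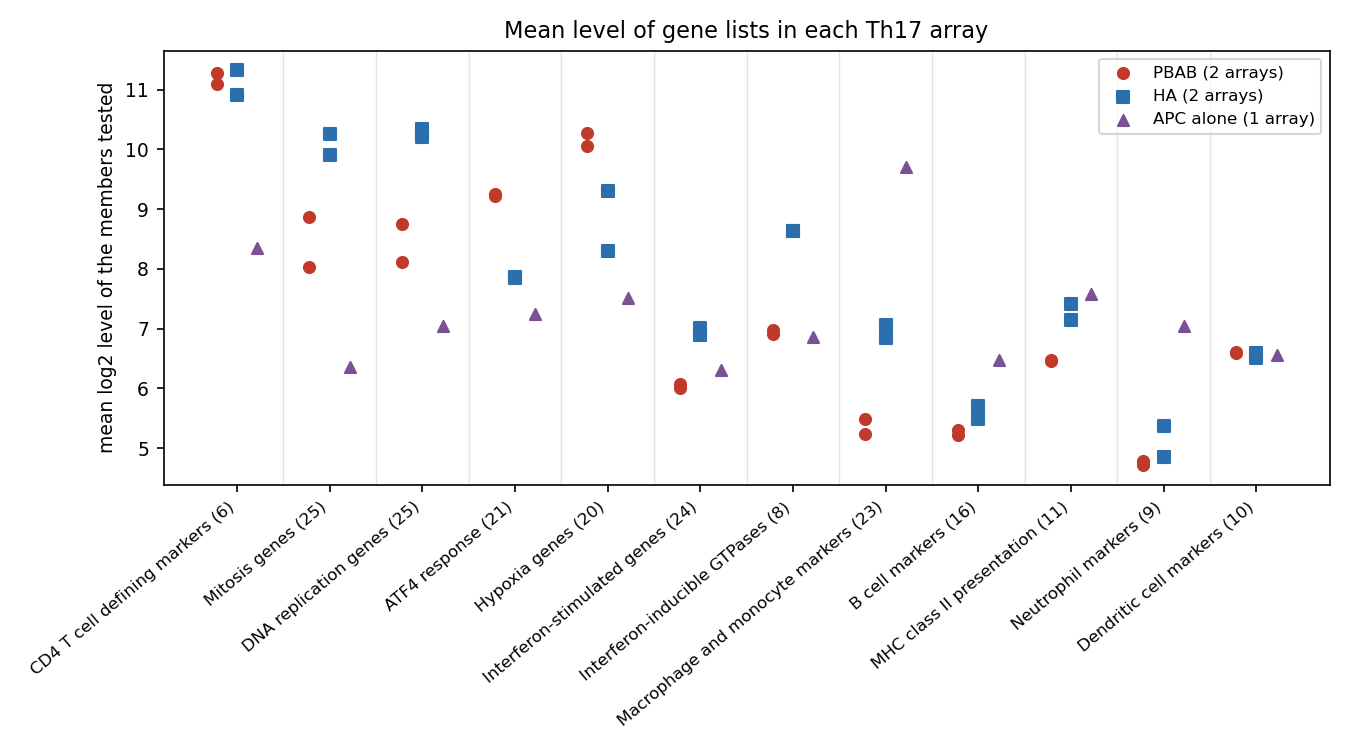
Mean log2 level of the tested members of 12 gene lists in each Th17 array: PBAB (circles), HA (squares) and APC alone (triangle), with the number of members in brackets. Macrophage markers step up from PBAB over HA to APC alone, whereas mitosis, replication and GTPase lists are highest in HA cultures, and the ATF4 list is highest in PBAB cultures.

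Whether the activation difference was particular to Th17 cultures was tested as the Th17 difference minus the mean of the Th1 and Th9 differences. This contrast called 546 genes (3.52%), 241 (1.56%) with a more positive and 305 (1.97%) with a more negative difference in Th17. With the replicate block 1975 genes were called. Without the second HA array 115 were, without the first PBAB array 218, without the second PBAB array 187 and without the first HA array 436. Of the genes called in Th17, 1070 were also called in Th1 cultures, which is 40.4% of the Th17 and 47.2% of the Th1 calls, and 1026 of these had the same sign. With Th9 cultures 1105 were shared, 41.7% of the Th17 and 52.0% of the Th9 calls, 1071 with the same sign. The 3 lineages shared 713 called genes. Of 1186 genes called in Th17 alone, 203 passed the test of the difference.

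Il10 had the most positive contrast, 5.10 ± 0.75 (adjusted p = 0.00765): it differed by 0.76 in Th17, against -5.97 in Th1 and -2.73 in Th9 cultures. Lbp differed by 4.07 in Th17, against -0.04 in Th1 and -0.03 in Th9 cultures (contrast 4.10 ± 0.45, adjusted p = 0.00235). Metrnl (3.42 ± 0.42, adjusted p = 0.00318), a secreted protein gene, was higher in Th17 PBAB cultures by 2.09, against -0.60 in Th1 and -2.07 in Th9 cultures. The chemokine receptor Cxcr6 (contrast 4.28 ± 0.78, adjusted p = 0.0186) differed by -0.78 in Th17, against -6.54 in Th1 and -3.58 in Th9 cultures. Its contrast lost the call without the second HA (0.107), first PBAB (0.0625) or second PBAB array (0.08). Esm1 (3.43) lay under the low-value threshold in the Th17 groups, so its contrast came from the Th1 and Th9 arrays.

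At the other end, Ccl3 differed by -2.97 in Th17, against 2.65 in Th1 and 1.32 in Th9 cultures (contrast -4.95 ± 0.49, adjusted p = 0.0014). Ifng differed by -3.94 in Th17, against 0.26 in Th1 and 0.49 in Th9 cultures (contrast -4.31 ± 0.59, adjusted p = 0.0055), and Il2 by -3.03, against 1.96 and 0.05 (contrast -4.04 ± 0.34, adjusted p = 0.000575). The sialyltransferase gene St8sia6 differed by -2.15, against 2.14 and 2.02 (contrast -4.23 ± 0.36, adjusted p = 0.000575). Dapl1 had a contrast of -4.03 ± 0.26 (adjusted p = 0.000249), with -0.06 in Th17 against 3.55 in Th1 and 4.39 in Th9 cultures. Anti-IFN-γ was in the Th17 medium and, per the labels, not in the Th1 and Th9 mixtures, so cytokine blockade and lineage cannot be told apart in these contrasts.

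Among the lineage genes, Ccr6 had a contrast of -2.98 ± 0.37 (adjusted p = 0.00374) and Maf one of 2.87 ± 0.32 (adjusted p = 0.00248), the second missing the threshold with the mean of its probe sets (adjusted p = 0.0562). Il17a (1.84 ± 0.37, adjusted p = 0.0276) lost the call without the second HA (0.0964), first PBAB (0.0974) or second PBAB array (0.0936). Macrophage markers held 8 of 23 members with a more negative difference in Th17, among them Apoe (-2.48) and Marco (-2.14), against 1.97% of all genes. Hypoxia genes held 2 of 20 with a more positive one, Ero1a (2.21) and Pfkfb4 (1.24), against 1.56% of all genes. Ero1a missed the threshold without the second HA array (adjusted p = 0.0554), and Pfkfb4 without the second HA (0.0839) or the first PBAB array (0.0697).

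**Figure D5:**
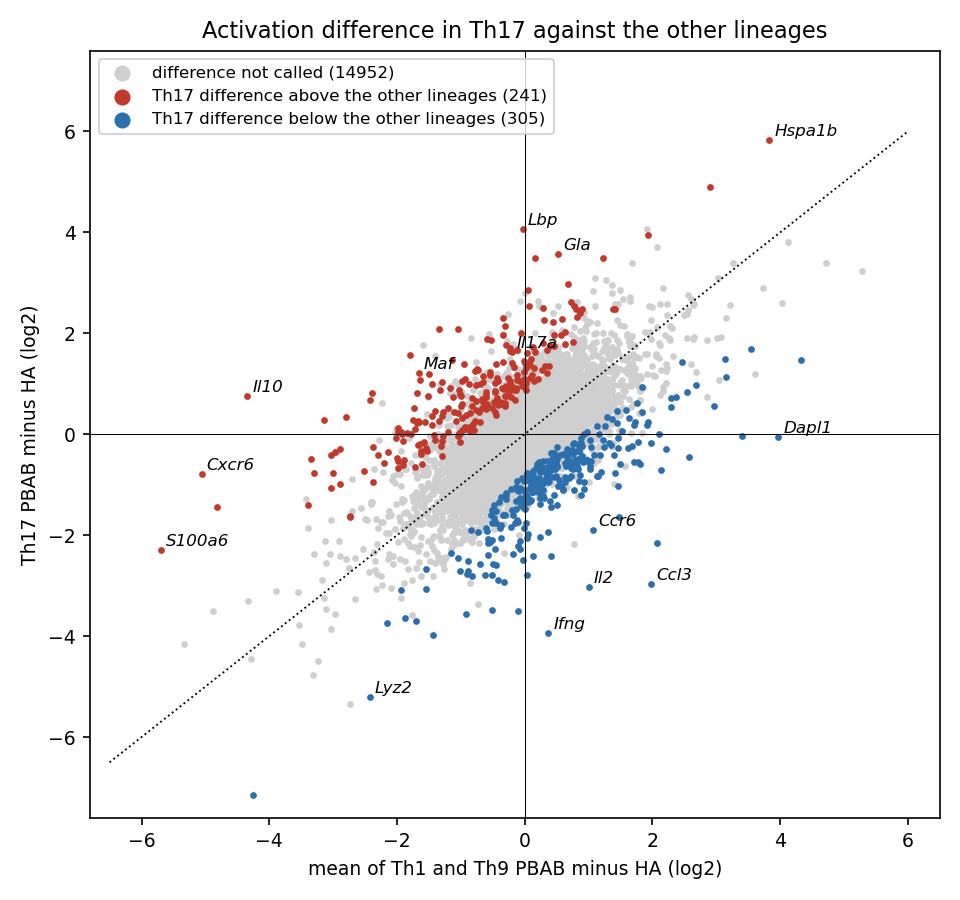
Th17 difference PBAB minus HA (log2, vertical axis) against the mean of the Th1 and Th9 differences (log2, horizontal axis) for the 15498 genes tested; the dotted line marks equal differences. Red points are the 241 genes with a more positive and blue points the 305 with a more negative difference in Th17 cultures.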

How the data were processed

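Total RNA (500 ng per sample) of 15 samples was amplified, biotin-labelled and hybridised to a mouse expression array with 45101 probe sets. The deposited log2 values were made by the authors with RMA, per the submitters' processing notes. They ranged from 2.10 to 15.05 and were used as deposited; the number of arrays limits the precision. GEO's platform annotation gave 34958 probe sets 1 symbol, 932 several and 9211 none. For each of 18194 genes the probe set with the highest mean was kept, and 15498 genes above 5.07 (the table's 40th percentile) in at least 2 arrays were tested.

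limma 3.58.1 (R 4.3.3) was fitted with 1 mean per group over all 15 arrays, so the spread of all groups is shared (6 residual degrees of freedom), and p-values were adjusted by Benjamini-Hochberg over all genes tested; a gene was called at an adjusted p under 0.05. The script was tested on simulated data. The contrasts were Th17 PBAB minus HA, and this difference minus the mean of those in Th1 and Th9. A gene was marked as possibly from splenocytes where the APC alone array exceeded the HA mean. Replicate numbers come from the titles. Deviations of same-numbered samples correlated at 0.296 to 0.708 over 15 pairs of activated groups, so the numbers were taken to pair the samples. The bioB control was also higher in replicate 2 than in replicate 1 in every activated group. Whether the pairing is technical was not tested. The main fit leaves this pairing out, so its standard errors and calls include the difference between replicate numbers. A fit with the replicate block is given where it changes a call.

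The genes, lists and comparison were chosen with earlier results of these data known. Named genes are the 10 largest called differences each way that do not overlap between groups, all measured Th17 cytokines, receptors and factors, Il10, Ifng, Tbx21, Gata3, Foxp3, Il2, Il2ra and Il9, up to 5 genes of smallest p from each other list described, and the 5 largest called contrasts each way. Genes with no row of their own in the annotation used are not analysed here. Promoters are RefSeq windows of GRCm38.p6.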

Additional observations from a re-analysis of the deposited data

Results flagged for a closer look

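The Th17 activation difference, PBAB minus HA, differed from the mean of the Th1 and Th9 activation differences in the following named genes, by limma with Benjamini-Hochberg adjustment over all genes. Each value is the Th17 difference minus that mean, on the log2 scale. The contrast was more positive in Th17 cultures, and stayed past the threshold when any 1 Th17 PBAB or HA array was left out, for Il10 (5.10), Lbp (4.10), Esm1 (3.43), Metrnl (3.42), Gla (3.04), Maf (2.87) and Map3k20 (2.02). It was more negative, and likewise stayed past the threshold, for Ccl3 (-4.95), Ifng (-4.31), St8sia6 (-4.23), Il2 (-4.04), Dapl1 (-4.03), Ccr6 (-2.98), Nr4a3 (-2.85), Wfdc17 (-2.54), Apoe (-2.48), H2-Ob (-2.21), Serpinb9 (-2.18), Marco (-2.14) and S100a8 (-2.12). Among these are genes of cytokines and chemokines (Il10, Ccl3, Ifng, Il2) and genes of myeloid cells (Apoe, Marco, S100a8).

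A further set passed with all arrays but not when at least 1 of the Th17 PBAB or HA arrays was left out. In the positive direction these were Cxcr6 (4.28), 2610528A11Rik (3.34), Basp1 (2.25), Ero1a (2.21), Tiparp (2.06), Il4ra (2.03), Hspa1a (2.00), Hspa1b (2.00), Il17a (1.84), Pfkfb4 (1.24) and Sc5d (1.19). In the negative direction they were Lyz1 (-2.90), Lyz2 (-2.78), Cd96 (-2.46), Cxcl3 (-2.0), Itgae (-1.78), Ighm (-1.69), Ccl9 (-1.58), Slfn2 (-1.51), Ctsh (-1.40), S100a9 (-1.35), Il18r1 (-1.15) and Itga4 (-1.12). Over these genes and the arrays whose absence ended the call, the adjusted p ran from 0.0513 to 0.196. The Th17, Th1 and Th9 cultures differed in cytokines, blocking antibodies and, for Th9, the HEL dose, so no 1 of these can be told apart from lineage.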

How the results depend on the processing

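With the replicate number as a block, which pairs the samples, 4709 genes differed between PBAB and HA cultures, 1938 higher and 2771 lower, and 1975 differed from the mean of Th1 and Th9, 837 more positive and 1138 more negative. Leaving out 1 array at a time gave 1214 to 2032 called genes, 424 to 827 higher and 790 to 1205 lower. The difference from Th1 and Th9 then gave 115 to 436 genes, 58 to 215 more positive and 57 to 221 more negative. In these fits the lone array of a pair is assumed to vary like the other groups. The share of lower genes marked by the APC alone array was 4.52% when the excess had to be 1 or more. For Il17re the mean of its probe sets gave -1.0. The cause of these shifts was not tested. Where an array was left out, the smaller number of arrays and the loss of that array cannot be told apart. Under the other settings, from the 4 Th17 arrays alone to quantile normalization again, 2075 to 2839 genes were called. Over 233 named genes and all settings, 3011 of 3250 values kept their direction and side of the threshold, 173 lost and 65 gained the call, and 1 reversed. The block changed the call only where the text gives its value or for genes not described. Counting only genes without the splenocyte mark, a setting chosen after seeing the data, left 2233 called genes. Array signal limits the dimmest genes: values under 5.07 carry little order.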
